A study of Rattus norvegicus with 16 samples.

Results

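The genes of GABA synthesis, breakdown and transport were followed in the rat dentate gyrus over 7 groups of a passive avoidance study, a task in which a rat learns to withhold a movement that was followed by an aversive stimulus. The members were 5 genes, Gad1, Gad2, Abat, Slc6a11 and Slc32a1. Every probe set whose platform annotation gave one of these symbols alone was taken, which left 7 of the 8740 probe sets that are not controls. Abat and Slc32a1 had 2 probe sets each and the other genes 1 each. All 7 passed the filter on low intensity, which 6220 probe sets passed.

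Total RNA was measured on 16 single-colour Affymetrix RGU34A arrays, with 1 sample on each. The groups were naive (3 arrays), 0 h (2 arrays), 2 h (2 arrays), 3 h (2 arrays), 6 h (3 arrays), 12 h (2 arrays) and 24 h (2 arrays). Every label, those of the naive group included, names passive avoidance trained rats. The naive group was taken as untrained and the other 13 arrays as trained, and the labels do not say from which event the hours count. Strain, age, sex and pooling of animals are not stated, and no label says that replicates came from separate rats, so a p-value here sets differences against array to array spread that could be purely technical. A scaled intensity below is a probe set's brightness after the arrays were brought to a common trimmed mean. Differences are on the log2 scale, with the standard error (SE) from 1 limma fit of all 16 arrays.

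GABA is the main inhibitory transmitter of the dentate gyrus, where it is released by interneurons onto granule cells and other interneurons. It is made from glutamate by the glutamate decarboxylases GAD67 (Gad1) and GAD65 (Gad2), loaded into synaptic vesicles by the vesicular transporter VGAT (Slc32a1), taken up again from outside the cell by plasma membrane transporters such as GAT-3 (Slc6a11), which is found mostly in astrocytes, and broken down by GABA transaminase (Abat). Rat dentate granule cells also hold some GAD67, and their Gad1 transcript is known to respond to neuronal activity.

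No member passed the threshold of an adjusted p of 0.05 in any comparison, under limma with Benjamini-Hochberg adjustment over all 6220 probe sets. The lowest unadjusted p of the 7 probe sets was that of Gad2 at 3 h, where both arrays lay below all 3 naive arrays and the mean was 2.73-fold lower. Both 3 h readings of Gad2 were under the level of 16.9 used to filter dim probe sets, so the size of that fold is uncertain. Slc6a11 was 1.57-fold lower at 3 h, also with no overlap between the groups. The brighter probe set of Slc32a1 lay below every naive array at 0 h, 2 h and 3 h, with an unadjusted p over 0.05 in limma each time. Such separation from naive, in either direction, was common. Of all tested probe sets, 21.7% showed it at 0 h, 27% at 2 h and 19.3% at 3 h. Gad1 and Abat showed no difference with an unadjusted p under 0.05.

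The start regions of Gad1 and Gad2 are shown because these genes encode the same enzymatic step and gave different patterns across the arrays. Each window runs from 250 bases before to 50 bases after the annotated start, from RefSeq on the rat assembly GRCr8, and 4 of the 5 members had such a window, Abat being the gene without one. The Gad1 window is chr3:75777202-75777501 and the Gad2 window chr17:89671468-89671767, both on the plus strand. Capitals mark matches on either strand to 4 short motifs. The TATA box was searched as TATAAA. The Sp1 box, bound by Sp family factors, was searched as GGGCGG. The CRE half-site, bound by CREB, was searched as TGACG. The site of the Egr factors, which neuronal activity induces, was searched as GCGNGGGCG.
Gad1: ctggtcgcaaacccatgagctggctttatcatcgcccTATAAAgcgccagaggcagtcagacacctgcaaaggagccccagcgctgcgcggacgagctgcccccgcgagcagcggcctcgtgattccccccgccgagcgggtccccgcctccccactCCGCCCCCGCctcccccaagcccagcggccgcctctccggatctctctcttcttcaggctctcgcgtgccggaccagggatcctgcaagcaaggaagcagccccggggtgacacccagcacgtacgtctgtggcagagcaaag
Gad2: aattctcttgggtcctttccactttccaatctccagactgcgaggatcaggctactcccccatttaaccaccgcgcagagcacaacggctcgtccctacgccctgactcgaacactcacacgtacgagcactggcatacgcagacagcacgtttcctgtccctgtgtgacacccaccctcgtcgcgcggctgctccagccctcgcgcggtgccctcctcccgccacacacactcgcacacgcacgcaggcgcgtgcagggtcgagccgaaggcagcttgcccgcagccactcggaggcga

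The Gad1 window held a match to the letters TATAAA 213 bases before the start. Whether this match works as a TATA box was not tested. The second run of capitals in that window is an Sp1 box match 93 bases before the start, on the minus strand. It overlaps an Egr site match 92 bases before the start on the same strand. The Gad2 window held none of the 4 motifs, which says only that these letters are not in this window. Of 33469 rat windows of the same length, 14.2% held the TATA box, 33.1% the Sp1 box, 21.2% the CRE half-site and 4.98% the Egr site. Both windows were rich in G and C, at 67.7% for Gad1 and 63.7% for Gad2, against a median of 51.7% over all windows. Among the other members, the Slc6a11 window held the Sp1 box 5 times, and the Slc32a1 window held the Sp1 box 1 time and the CRE half-site 2 times. The array data carry no measure of factor binding, so no link between these letters and the intensities was tested.

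**Figure D1:**
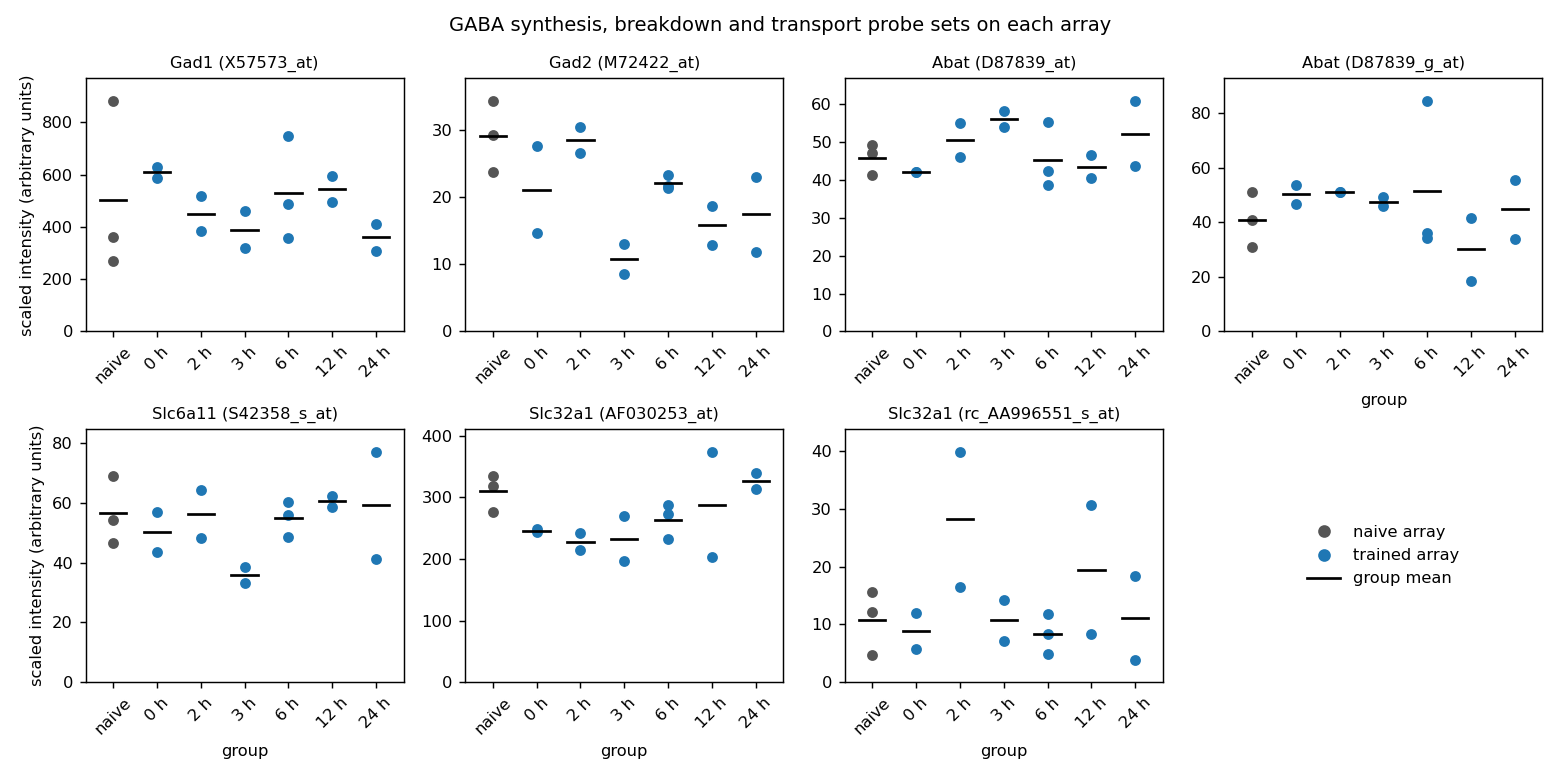
Scaled intensity (arbitrary units, linear axes from 0) of the 7 member probe sets on each of the 16 arrays, by group; points are single arrays and short lines group means. The 3 h points of Gad2, at 13.0 and 8.57, lie below the 3 naive points, while the naive points of Gad1 alone span 271 to 881.

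Gad1 was bright on every array. In the naive group its scaled intensity was 360.4, 271 and 881. At 0 h it was 631 and 588, at 2 h 383 and 520.0, and at 3 h 319 and 460.4. The third naive array was the highest of all 16 and the second naive array the lowest, so the naive values enclosed those of every trained group. The arrays at 6 h gave 488, 748 and 359, those at 12 h 494 and 597, and those at 24 h 309.7 and 411. The 0 h group had the highest mean, at 610 ± 30.6 (SD, n = 2), against 504 ± 329 (SD, n = 3) in the naive group. The difference on the log2 scale was 0.47 (SE 0.39), with an unadjusted p of 0.252 in limma, less than the spread between replicates. Averaged over the 6 trained times, Gad1 differed from naive by 0.08 (SE 0.28, limma unadjusted p = 0.779). The limma F test over the 7 groups gave an unadjusted p of 0.558. Without the third naive array, where Gad1 was highest, the 0 h difference was 0.96 (limma unadjusted p = 0.00753) and the trained difference 0.58 (limma unadjusted p = 0.0282). Without the second, where it was lowest, the trained difference was -0.27.

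Gad2, the isoform associated with synaptic terminals, was dim: its probe set was above the filter level of 16.9 on 11 of the 16 arrays. The naive arrays read 34.3, 23.8 and 29.3. Those at 2 h read 30.5 and 26.6, within the naive range, and those at 0 h 27.7 and 14.6. Thus the 0 h arrays differed from each other by more than the naive arrays did. At 3 h the arrays read 13.0 and 8.57, the latter being the lowest Gad2 value of the 16. The 6 h arrays lay close together at 23.3, 21.4 and 21.7. The 12 h arrays read 13.0 and 18.8, and the 24 h arrays 23.0 and 11.9. All arrays at 3 h, 6 h, 12 h and 24 h, and 1 at 0 h, lay below the lowest naive array, which makes 10 of 13 trained arrays. Of all tested probe sets, 19.3% did not overlap naive at 3 h, 10.9% at 6 h, 27.7% at 12 h and 20.6% at 24 h, in either direction. The share of all probe sets that reach a count of 10 of 13 was not computed, so whether it is unusual is not known.

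The 3 h difference of Gad2 from naive was -1.45 on the log2 scale (SE 0.40), with a 95% interval of -2.30 to -0.60. The limma fit gave it an unadjusted p of 0.00229, the 17th lowest of 6220 at that hour, and an adjusted p of 0.777. At 12 h the difference was -0.89 (SE 0.40, limma unadjusted p = 0.0421, adjusted p = 0.485) and at 24 h -0.80 (SE 0.40, limma unadjusted p = 0.0634). The other hours gave smaller differences, of -0.52 (SE 0.40) at 0 h, -0.02 at 2 h and -0.38 (SE 0.36) at 6 h. The 0 h difference of Gad2 rested on single arrays: it was -0.98 without the first 0 h array and -0.06 without the second. Over the 6 trained times together, Gad2 was 1.60-fold lower than naive, a difference of -0.67 (SE 0.28, limma unadjusted p = 0.0293, adjusted p = 0.922). Of the 13 trained arrays, 12 lay below the naive mean, a count whose share over all probe sets was not computed. The F test over the 7 groups gave an unadjusted p of 0.0346 and an adjusted p of 0.471 in limma. Between the 6 trained times alone it gave an unadjusted p of 0.0676.

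In order of mean log2 level, the groups ran from naive at 4.85 through 2 h at 4.83, 6 h at 4.47, 0 h at 4.33, 24 h at 4.05 and 12 h at 3.96 to 3 h at 3.40 for Gad2. The pooled replicate SD was 0.39. Of the neighbours in this order, 2 h and 6 h did not overlap, but their means were closer than that SD; the step from 12 h to 3 h was 0.56 and the arrays of these groups overlapped. The order of the hours of Gad2 was thus not resolved beyond replicate spread from 1 group to the next.

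**Figure D2:**
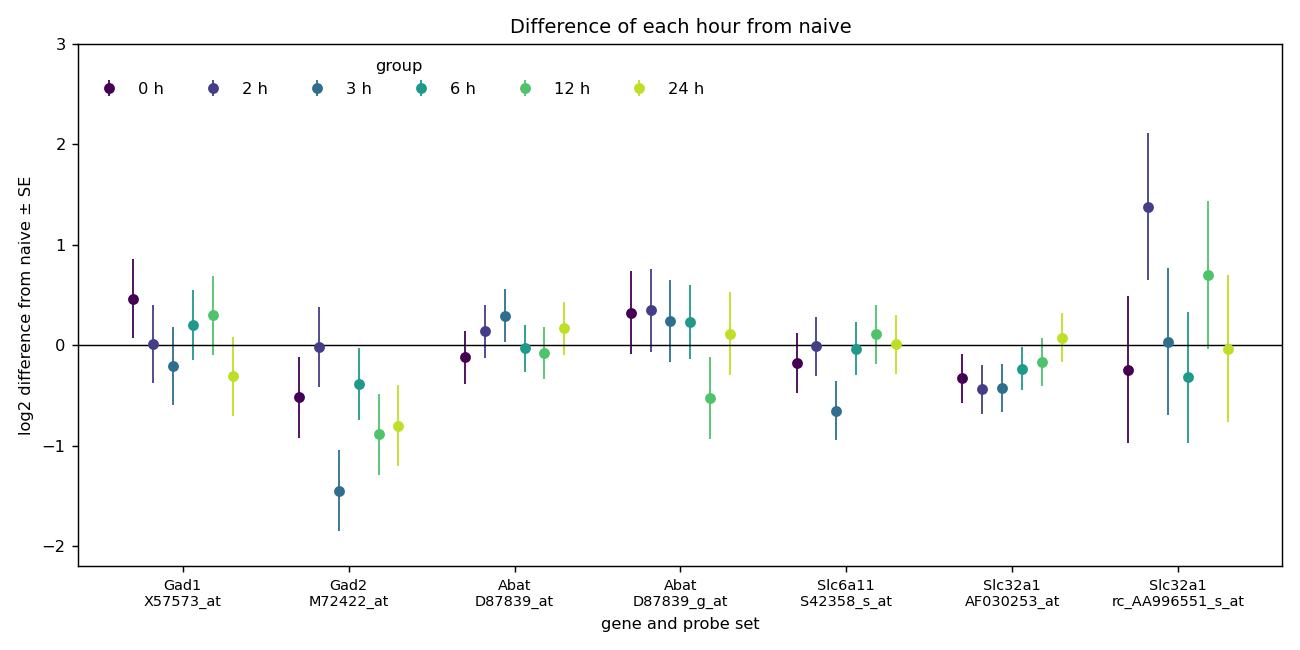
Difference from naive (log2) of the 7 member probe sets at each hour; points are limma estimates coloured by hour and bars their SE, all against the same 3 naive arrays. Gad2 at 3 h (-1.45, SE 0.40) lies lowest, and every Gad2 point is at or below 0.

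The 3 h difference of Gad2 kept its sign under all 27 alternatives tried, from -1.75 to -0.89, and had an unadjusted p under 0.05 in 26 of them. The smallest adjusted p among these was 0.317. Without the second 3 h array it was -1.15 (limma unadjusted p = 0.0385). With the level of Ttr, a marker of choroid plexus, as a covariate it was -0.89 (SE 0.59, limma unadjusted p = 0.151). The 12 h difference of Gad2 had an unadjusted p under 0.05 in 21 of 27 alternatives. It lost it without the first 12 h array (-0.62, limma unadjusted p = 0.235), without the first naive array (-0.76, limma unadjusted p = 0.115), without the third (-0.87, limma unadjusted p = 0.0748), with the Ttr covariate (-0.34, limma unadjusted p = 0.572), with the beta-actin ratio as a covariate (-0.91, limma unadjusted p = 0.190) and with array weights (-0.90, limma unadjusted p = 0.0611). At 24 h the difference was -1.28 without the first array of that time (limma unadjusted p = 0.0193) and -0.32 without the second. The trained difference of Gad2 lost its unadjusted p under 0.05 without the first naive array (-0.55, limma unadjusted p = 0.133) or the third (-0.66, limma unadjusted p = 0.0756). It also lost it with the Ttr covariate (-0.23, limma unadjusted p = 0.623) and with the ratio of 3' to 5' beta-actin control probe sets, a sign of RNA integrity, as a covariate (-0.69, limma unadjusted p = 0.126). The F test of Gad2 over the 7 groups lost it without the first naive array or the third, either 2 h array or the second 3 h array (limma unadjusted p = 0.158), after quantile normalization (limma unadjusted p = 0.0514) and with the Ttr covariate (limma unadjusted p = 0.139).

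**Figure D3:**
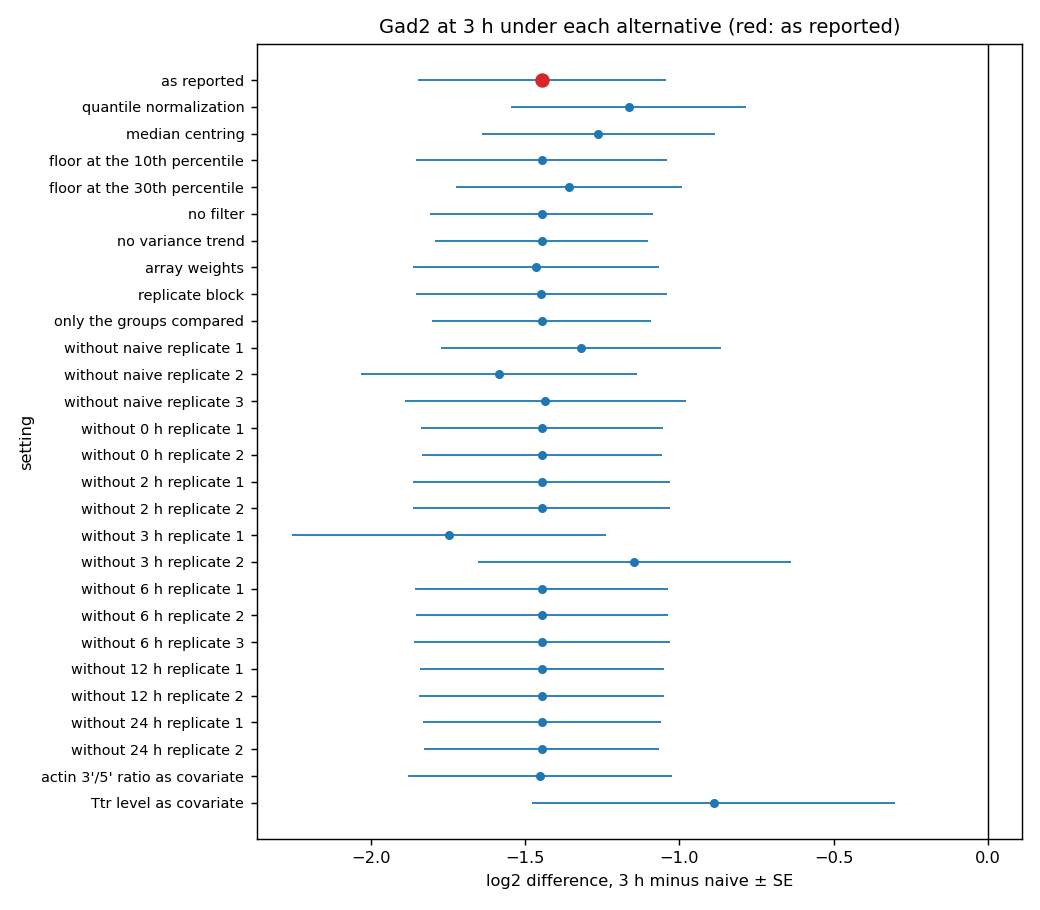
Gad2 difference from naive at 3 h (log2) under each way of processing the arrays, with the reported value in red; points are limma estimates and bars their SE. The values run from -1.75 to -0.89, all below 0.

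Markers of choroid plexus, a tissue next to the hippocampus whose presence depends on dissection, moved with the naive to trained comparison. All 7 measured genes of that list were lower at every hour. Their summed scaled intensity was 2310 to 5817 on the naive arrays, 482 to 615 at 3 h and 1726 to 4762 at 6 h. Gad2 correlated with Ttr over the 16 arrays at Pearson r = 0.58 (Spearman rho = 0.438) and at r = 0.539 without the 2 arrays farthest from the median Ttr level. The part of choroid plexus RNA in the Gad2 result was examined only through the covariate. Ttr did not overlap between naive and 3 h, at log2 levels of 10.8, 11.5 and 11.9 against 8.11 and 6.57. The covariate therefore cannot tell choroid plexus RNA and the 3 h comparison apart. Interneuron markers overlapped between naive and 3 h in sum. The summed level of the 16 on the array was 1883, 1727 and 2664 in naive and 1725 and 2177 at 3 h. Bright genes lead that sum, such as Sst at a median of 523. Of the 14 interneuron markers tested, 4 were higher and 10 lower at 3 h, none with an unadjusted p under 0.05 in limma. The part of interneuron content in the Gad2 values was not tested. Oligodendrocyte markers, whose part in the Gad2 values was not tested, stood apart at 24 h, with a summed level of 2827 to 3060 against 4524 to 6103 in naive, and overlapped naive at 3 h, at 4218 to 5178. In whole tissue, fewer cells of a type and less RNA per cell cannot be told apart.

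Abat, whose product removes GABA in mitochondria of neurons and glia, was read by 2 probe sets built on the same transcript record. The first, D87839_at, varied least of the members, with 1.57-fold between its lowest and highest array. It read 49.3, 47.1 and 41.2 in naive and 54.0 and 58.2 at 3 h, so that both 3 h arrays lay above all naive arrays. That difference was 0.30 (SE 0.26, limma unadjusted p = 0.276), and over the trained times the difference was 0.06 (SE 0.18). The second, D87839_g_at, read 40.8, 30.8 and 51.2 in naive and between 18.6 and 84.2 in the trained arrays. Its mean was lowest at 12 h, at 18.6 and 41.7, a difference of -0.52 (SE 0.41, limma unadjusted p = 0.222) that became 0.06 without the first 12 h array, -1.10 without the second (limma unadjusted p = 0.0347) and -1.27 with the beta-actin ratio as a covariate. The limma F test over the 7 groups gave unadjusted p-values of 0.753 and 0.506. Over the 16 arrays the 2 probe sets of Abat did not track each other (Pearson r = -0.07).

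Slc6a11 encodes the uptake carrier GAT-3. Its naive arrays read 46.7, 69.1 and 54.4 and its 3 h arrays 38.5 and 33.1, the lowest pair of any group. The arrays at 0 h read 56.9 and 43.4 and those at 2 h 48.2 and 64.2, each group overlapping naive. Readings at 6 h were 48.6, 60.2 and 56.0, at 12 h 62.2 and 58.7, and at 24 h 76.9 and 41.3. The 24 h group thus held both the highest array and one below all naive arrays. At 3 h the difference from naive was -0.65 (SE 0.30, 95% interval -1.28 to -0.02), with an unadjusted p of 0.0438 and an adjusted p of 0.998 in limma. Over all trained times it was -0.12 (SE 0.21), and the limma F test over the 7 groups gave an unadjusted p of 0.339.

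The 3 h difference of Slc6a11 stayed below 0 under 28 alternatives, from -0.78 to -0.30, with an unadjusted p under 0.05 in 19. It missed that level after quantile normalization (-0.48, limma unadjusted p = 0.110), after median centring (-0.47, limma unadjusted p = 0.112), with the Ttr covariate (-0.30, limma unadjusted p = 0.515), with the replicate number as a block (-0.65, limma unadjusted p = 0.0672) and in a fit of the 3 h and naive arrays alone (limma unadjusted p = 0.0518). It also missed it without the first or second 3 h array (-0.76, limma unadjusted p = 0.0683, and -0.54, limma unadjusted p = 0.180) and without the second naive array or the third (-0.50, limma unadjusted p = 0.145, and -0.67, limma unadjusted p = 0.0617). Astrocyte markers overlapped between the groups in sum: the summed level of the 8 measured was 5870 to 7487 at 3 h and 5717 to 6968 in naive. Bright genes lead that sum, such as Aldoc at a median of 2511, against 30.1 for Aqp4. Singly, 4 of the 8 were higher and 4 lower at 3 h. Of these 1, Aqp4 at -1.35 (SE 0.57), had an unadjusted p under 0.05 in limma, against 4.31% of all probe sets. Slc6a11 and Gad2 correlated at Pearson r = 0.54 over the arrays, a description in which the 2 genes share every array and its scaling.

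Slc32a1 had a bright probe set, AF030253_at, and a dim one, rc_AA996551_s_at. The bright one read 276, 334 and 319 in naive, 244 and 249 at 0 h, 242 and 215 at 2 h, and 269.5 and 197 at 3 h. At each of these 3 times both arrays lay below the lowest naive array. Groups that did not overlap naive, in either direction, made up 21.7%, 27% and 19.3% of all tested probe sets at these times. The later groups read 273, 287 and 232 at 6 h, 204 and 373 at 12 h, and 313 and 339 at 24 h, and these groups overlapped naive. The differences were -0.33 (SE 0.24, limma unadjusted p = 0.194) at 0 h, -0.44 (SE 0.24, limma unadjusted p = 0.0889, or 0.0493 without either 12 h array) at 2 h and -0.42 (SE 0.24, limma unadjusted p = 0.0985) at 3 h. Leaving out the first 3 h array gave -0.65 for the last of these (limma unadjusted p = 0.0489), and leaving out the second gave -0.20. In all, 9 of 13 trained arrays lay below every naive array, and the trained difference was -0.25 (SE 0.17, limma unadjusted p = 0.159), or -0.32 without the second 12 h array, the brightest for Slc32a1 (limma unadjusted p = 0.0426). The share of all probe sets that reach a count of 9 of 13 was not computed. The values of this Slc32a1 probe set correlated with the unscaled brightness of the arrays (Pearson r = 0.584, Spearman rho = 0.594, r = 0.536 without the 2 farthest arrays). The part of array brightness in its differences was not tested.

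The dim probe set of Slc32a1 was above the filter level on 3 arrays and at the floor on 3, so that its log2 differences partly rest on the floor. The 3 arrays above that level were all trained, at 39.8 (2 h), 30.6 (12 h) and 18.3 (24 h). This probe set thus passed the filter only through trained arrays, so its higher readings there are no support for a rise. It read 15.5, 4.68 and 12.2 in naive and 16.5 and 39.8 at 2 h, a difference of 1.38 (SE 0.73, limma unadjusted p = 0.077) opposite in sign to that of the bright one. It was 2.02 without the first 2 h array (limma unadjusted p = 0.0456), 0.75 without the second, 1.07 with a higher floor (limma unadjusted p = 0.0382), 0.60 with the beta-actin covariate, 0.72 with the Ttr covariate and 0.90 without the second naive array. The 2 probe sets of Slc32a1 correlated at Pearson r = -0.57 over the arrays. They disagreed, and no direction for the gene is drawn from them together.

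Counted over the 7 probe sets, 2 had an unadjusted p under 0.05 at 3 h (Gad2 and Slc6a11), against 4.31% of all probe sets tested. At 12 h 1 did (Gad2), against 10.1%, and in the trained comparison 1 (Gad2), against 5.35%. None did at 0 h (5% of all), 2 h (7.67%), 6 h (9.41%) or 24 h (4.44%). In the F test 1 member, Gad2, did over the 7 groups, against 10.3%, and none between the trained times, against 10.8%. At the adjusted threshold no member was called in any comparison, against 0.0161% of all probe sets at 2 h, which is 1 probe set, and 0% in every other comparison by limma. A share over 7 probe sets moves in large steps, and Gad2 made up each of the counts of 1.

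Groups that did not overlap naive were counted in the same way. At 3 h 4 of the 7 member probe sets did not overlap (Gad2, Slc6a11 and the bright Slc32a1 lower, Abat D87839_at higher), against 19.3% of all. At 2 h 2 did not, those of Slc32a1, against 27%, and the dim one of these passed the filter only through trained arrays. At 0 h 1 did not, the bright Slc32a1, against 21.7%. Gad2 was the single one at 6 h, 12 h and 24 h, against 10.9%, 27.7% and 20.6%. The median member difference was -0.20 at 3 h, against -0.07 over all probe sets, and 0.06 over the trained times, against -0.01. All hours share the 3 naive arrays, so these counts are not independent of each other.

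Gad1 followed several interneuron markers from array to array. These were named after their values were seen. Its Pearson r with Cnr1, the cannabinoid receptor CB1 of a class of interneuron terminals, was 0.848 over the 16 arrays (Spearman rho = 0.824). With Sst, the peptide somatostatin of hilar interneurons, r was 0.78 (rho = 0.771). Leaving out the 2 arrays farthest from the median Gad1 level gave 0.795 and 0.74. The potassium channel Kcnc2 followed at 0.736, the tachykinin precursor Tac1 at 0.718, Npy at 0.571 and Reln at 0.542. Thus 6 of the 14 tested interneuron markers exceeded an r of 0.5 with Gad1, against 10.2% of all probe sets, and the median r of the 14 was 0.353. Without the 2 farthest arrays Kcnc2 was at 0.621, Tac1 at 0.644, Reln at 0.684 and Npy at 0.477, below that level. Over all 16 arrays other markers of the 14 went the other way: Nos1 (-0.39), Penk (-0.266), Cck (-0.232), Tac3 (-0.107) and Pvalb (-0.048). An r over 0.5 with Gad1 was not particular to interneuron markers. Among the astrocyte markers S100b (0.614), Ntsr2 (0.54) and Aqp4 (0.532) also exceeded 0.5. The rest of that list lay between -0.562 (Slc1a2) and 0.416 (Slc1a3).

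The count of interneuron markers with an r over 0.5 was 0 of 14 for Gad2, against 4.78% of all probe sets. It was also 0 of 14 for the bright Slc32a1 probe set, against 4.18%, and 0 of 14 for Slc6a11, against 5.5%. It was 2 of 14 for each Abat probe set, against 5.23% for D87839_at and 3.68% for D87839_g_at, and 1 of 14 for the dim Slc32a1 probe set, against 2.15%. Gad1 and Gad2 themselves correlated at r = 0.07. On the third naive array Gad1 read 881, Cnr1 430.0 and Sst 775, while the first and second naive arrays gave 227 and 195 for Cnr1 and 388 and 391 for Sst. The high Gad1 array of the naive group was thus also its high array for both markers. Gad1 also correlated with the beta-actin ratio at r = 0.567 (rho = 0.6). That ratio was 1.49 to 1.70 on the naive arrays and 1.51 to 2.80 on the trained arrays, and with it as a covariate the Gad1 difference at 0 h was -0.42 in place of 0.47. These correlations describe 16 arrays that share scaling and dissection, and the part of the makeup of the tissue in them was not tested.

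**Figure D4:**
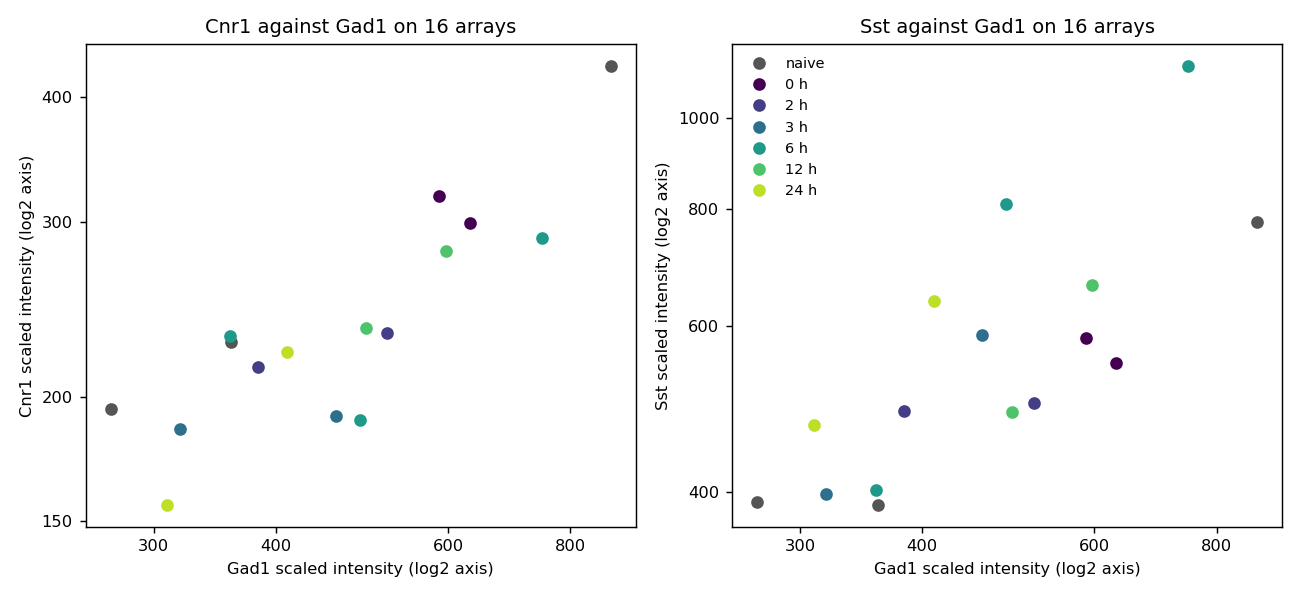
Scaled intensity of Cnr1 (left) and Sst (right) against that of Gad1 on the 16 arrays, all on log2 axes; points are single arrays coloured by group. The naive array with Gad1 at 881 has Cnr1 at 430.0 and Sst at 775, and arrays of several groups lie along each trend.

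By likeness over the 16 arrays, the genes nearest to Gad1 were Bhlhe41 (r = 0.939), Mfsd6 (r = 0.937) and Camk2d (r = 0.914). Those nearest to Gad2 were Inhbe (r = 0.85), Stmn4 (r = 0.783) and Cds1 (r = 0.78). Abat D87839_at was nearest to Prkcz (r = 0.834), Resp18 (r = 0.821) and Mdh2 (r = 0.807). For Slc6a11 they were Slc18a3 (r = 0.817), Slc28a1 (r = 0.805) and Abcc3 (r = 0.795), and for the bright Slc32a1 they were Ldb3 (r = 0.862), Hgf (r = 0.819) and Ctsb (r = 0.786). No gene was among the nearest 3 of more than 1 member. Each was the highest of very many correlations over few arrays and is given as a description.

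The wider GABA system outside the members was read from a list of 35 genes of receptors, transporters, chloride carriers and enzymes, of which 26 had a probe set and 22 were tested. At 3 h 7 were higher and 15 lower than naive, and 4 of the lower ones had an unadjusted p under 0.05 in limma, against 4.31% of all probe sets in either direction. These were Gabrg1 at -1.23 (SE 0.37) and Gabra6 at -0.94 (SE 0.44), subunits of the GABA-A receptor, Gabrr1 at -1.11 (SE 0.37), a rho subunit, and Slc12a2 at -0.70 (SE 0.26), the chloride importer NKCC1. The list's median at 3 h was -0.18, against -0.07 over all probe sets and -0.20 over the members. At 12 h 11 were higher and 11 lower, and 1 had an unadjusted p under 0.05, against 10.1% of all: Gabra4, another receptor subunit, at -1.01 (SE 0.43). Over the trained times 7 were higher and 15 lower, and 1 had such a p, against 5.35% of all: Slc12a2 at -0.46 (SE 0.18). The probe set read for Slc12a2 was lowest at 24 h at -0.97 (SE 0.26). Its other tested probe sets, AF086758_g_at and S82233_s_at, were at -0.27 (SE 0.64) and -0.34 (SE 0.44) at 24 h. Both were lowest at 3 h, at -0.98 (SE 0.64) and -0.90 (SE 0.44). The choroid plexus markers were lower in the trained comparison too, with a median of -1.66 over 7 genes. Their part in the Slc12a2 difference was not tested. Calls at the other hours went both ways, and their genes are named after their values were seen. At 0 h 1 was higher (Gabra5, 0.70) and 2 lower (Gabra3, -1.33, and Gabrb1, -0.70). At 2 h 2 were higher (Gabrb1, 0.57, and Gabre, 0.99) and 0 lower. At 6 h 0 were higher and 1 lower (Gabra2, -0.94). At 24 h 1 was higher (Gabrd, 0.86) and 2 lower (Gabra5, -0.79, and Slc12a2, -0.97). Gabrb1 and Gabra5 thus had calls in both directions. A dimmer probe set of Gabra5 was at -0.003 (SE 0.40) at 0 h and -0.59 (SE 0.40) at 24 h. Gabra3 and Gabre were dim, at median scaled intensities of 14.28, with 1 array at the floor, and 16.16. Both medians were below the level used to filter dim probe sets. Gabra6 had a median of 20.48, above that level, and a lowest array of 8.57, below it. The sizes of the differences of Gabra3, Gabre and Gabra6 are thus uncertain. In the F test over the 7 groups, 6 of 22 had an unadjusted p under 0.05, against 10.3% of all. None of the 22 had an adjusted p under 0.05 in any comparison by limma.

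The other GABA transporter and the next enzyme of breakdown had no unadjusted p under 0.05 at any hour. Slc6a13, the transporter GAT-2, was at -1.06 (SE 0.79) at 24 h and between -0.25 and 0.02 at the other hours. Aldh5a1, the dehydrogenase that acts after GABA transaminase, was at -0.63 (SE 0.36) at 6 h and between -0.15 and -0.03 at the other hours. Slc6a13 had the wider standard error of the pair, so a change in it could be missed more easily. It was also dim, with a median scaled intensity of 10.01 over all arrays and 13.21 in naive. Both medians were below the level used to filter dim probe sets, and 2 arrays were at the floor. Its small differences are therefore no measure of an absence of change.

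**Figure D5:**
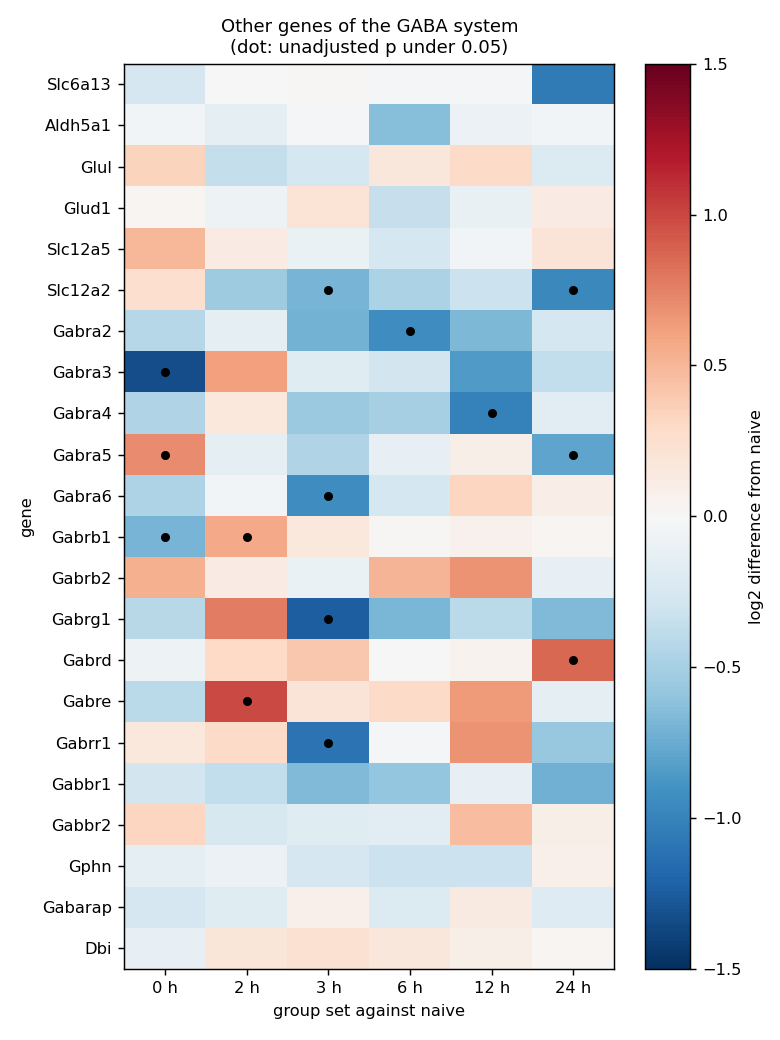
Difference from naive (log2, colour scale) of the 22 tested genes of the wider GABA system, which leaves out the members, at each hour; blue is lower, red is higher, and a dot marks an unadjusted p under 0.05 in limma. The 3 h column holds 4 dots, all on lower genes: Slc12a2 (-0.70), Gabra6 (-0.94), Gabrg1 (-1.23) and Gabrr1 (-1.11).

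The arrays differed 5.11-fold in trimmed mean intensity before scaling, from 33.3 to 170.3, and their log2 values correlated at 0.908 to 0.973 between arrays of different groups and 0.918 to 0.967 within groups. The number of arrays limits the precision of every value above. Of 9 listed granule cell markers 5 were on the array. Their medians were 2397 for Ncdn, 364 for Calb1, 151.5 for Marcks and 126 for Neurod1, and Tdo2 was at the floor on 14 arrays. Of 8 listed pyramidal neuron markers 6 were on the array. Their medians ran from 556 for Pcp4 to 16.5 for Man1a1, and Spink8 was at the floor on 15 arrays. The purity of the dissection was not tested.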

How the data were processed

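The authors deposited 1 intensity per probe set and array on a linear scale, per the file headers a value table of 16 arrays; for software, background correction and scaling, nothing is given in the sources used here. The 59 control probe sets were left out. Intensities were multiplied so that all arrays had a 2% trimmed mean of 105, raised to at least the pooled 20th percentile (5.05) and taken to log2. Probe sets above the pooled 40th percentile (16.9) on at least 2 arrays were tested: 6220 of 8740. Symbols came from the platform annotation, updated by gene identifier. One fit in limma 3.58.1 (R 4.3.3; lmFit, eBayes with trend) covered the 7 groups, with Benjamini-Hochberg adjustment over all tested probe sets within a comparison. Scripts were tested on simulated data. Members and gene lists were chosen with earlier results of these data known. Named outside the members were the 3 most correlated genes of each, and of the wider list the transporters, breakdown enzymes and genes with an unadjusted p under 0.05 where a member had one; a gene with several probe sets was read from the brightest. Alternatives changed normalization, floor, filter, variance model, samples, block and covariates.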

Additional observations from a re-analysis of the deposited data

Results flagged for a closer look

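The ratio of 3' to 5' beta-actin control probe sets, which are outside the probe sets tested, reached 2.80 on a trained array, above the highest naive array at 1.70. It exceeded every naive array on 12 of the 13 trained arrays. Its part in the differences of the members was examined only as a covariate. No group had enough arrays for a test of single outlying arrays.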

How the results depend on the processing

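Under 28 ways of changing the processing, 17 of 572 log2 differences of the members changed sign. The count of members past the adjusted threshold was 0 in each comparison under all of them by limma, where 2 members at 3 h, 1 at 12 h and 1 in the trained comparison had an unadjusted p under 0.05 as reported. For the trained comparison, the actin ratio as a covariate gave -0.52 for Gad1, -0.33 for Abat D87839_g_at and -0.38 for the dim Slc32a1 probe set. The Ttr covariate gave -0.057 for Abat D87839_g_at, 0.16 for Slc6a11 and -0.31 for the dim Slc32a1 probe set. Both covariates were chosen after seeing the data. The Ttr covariate also gave 0.51 for Gad2 at 2 h, and the actin ratio -0.42 for Gad1 at 0 h. The cause was not tested. Leaving out 1 array at a time moved the trained difference from -0.27 to 0.58 for Gad1, -0.012 to 0.118 for Abat D87839_at, -0.068 to 0.300 for Abat D87839_g_at, -0.255 to 0.028 for Slc6a11 and -0.23 to 0.58 for the dim Slc32a1 probe set, the Gad2 difference at 2 h from -0.16 to 0.11, and that of Abat D87839_g_at at 12 h from -1.104 to 0.058. A group left with 1 array was assumed to vary like the others. A stricter filter, at the pooled 60th percentile, left Gad2 and the dim Slc32a1 probe set untested. Same-numbered arrays of different groups correlated at -0.20 to 0.19 in their deviations from group means (43 pairs, median 0.025, 12 over 0.1) and differently numbered ones at -0.19 to 0.18 (66 pairs, median -0.024, 6 over 0.1). As a hint from the data, 12 of 16 arrays correlated best with their own number; since not every pair exceeded 0.1, the numbers were not taken as pairs. With the replicate number as a block, the Gad2 difference at 3 h was -1.45 (limma unadjusted p = 0.00301) and 0 members passed the adjusted threshold. Low signal limits Gad2 and the dim Slc32a1 probe set, and most groups have 2 arrays.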
